A study of Cavia porcellus with 72 samples.

Results

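Neurexins, neuroligins and the CADM proteins are adhesion molecules that join the 2 sides of a synapse. The genes described here are NRXN2, NRXN3, NLGN1, NLGN2, NLGN3, CADM1, CADM2, CADM3 and CADM4, taken by symbol from the RNA-seq count tables of the female guinea pig hippocampus. Of the 9 genes listed, 8 were present in all 3 tables, which share 11446 genes, and CADM3 was not analysed here. The neuroligin NLGN4X was likewise not analysed here. The genes were chosen by family with the sGC and control levels of these libraries already known, so their differences are a description of these animals and not independent support for any pattern.

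All animals were juvenile female Dunkin-Hartley guinea pigs killed on postnatal day 40, and each came from a different mother. In the sGC lineage the pregnant F0 founder received repeated courses of betamethasone, a synthetic glucocorticoid (sGC), from mid to late gestation. In the control lineage (vehicle) it received saline. F1 animals were exposed in utero. F2 and F3 animals descended from F1 and then F2 males mated with untreated females, so that the exposure reached them through the paternal line. There were 6 control and 5 sGC libraries in F1, 6 and 6 in F2, and 6 and 7 in F3, 36 in all, each from the right hippocampus of 1 animal.

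Neurexins sit mainly on the presynaptic terminal and bind neuroligins across the synaptic cleft. Neuroligins are postsynaptic and recruit scaffold proteins and receptors: NLGN1 is found mainly at excitatory synapses, NLGN2 at inhibitory synapses, and NLGN3 at both. The CADM proteins, also called SynCAMs, are immunoglobulin adhesion molecules that bind each other across the synapse and on glia and axons. A gene count does not separate the long and short forms or the splice variants of these genes, on which binding depends.

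Each library held between 13507449 and 19767033 counted reads. Every one of the 8 genes passed the filter on low counts in each generation, the lowest count of any being 398 reads. A level is the gene's count per 1e+06 reads (CPM) after TMM scaling over all 36 libraries. A difference is the log2 fold change, sGC over control, from edgeR's quasi-likelihood test within each generation. The adjusted p-value (Benjamini-Hochberg over all genes tested) was read against 0.05. Levels of different genes are not compared, since they were not put on a scale per length. Of 8 markers of excitatory hippocampal neurons, 7 were measured and none was at 0, with summed levels between 6702 and 10828 CPM over all groups. Libraries numbered 32 to 36 do not follow on from the other numbers of their generation, and all come from sGC animals.

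**Figure D1:**
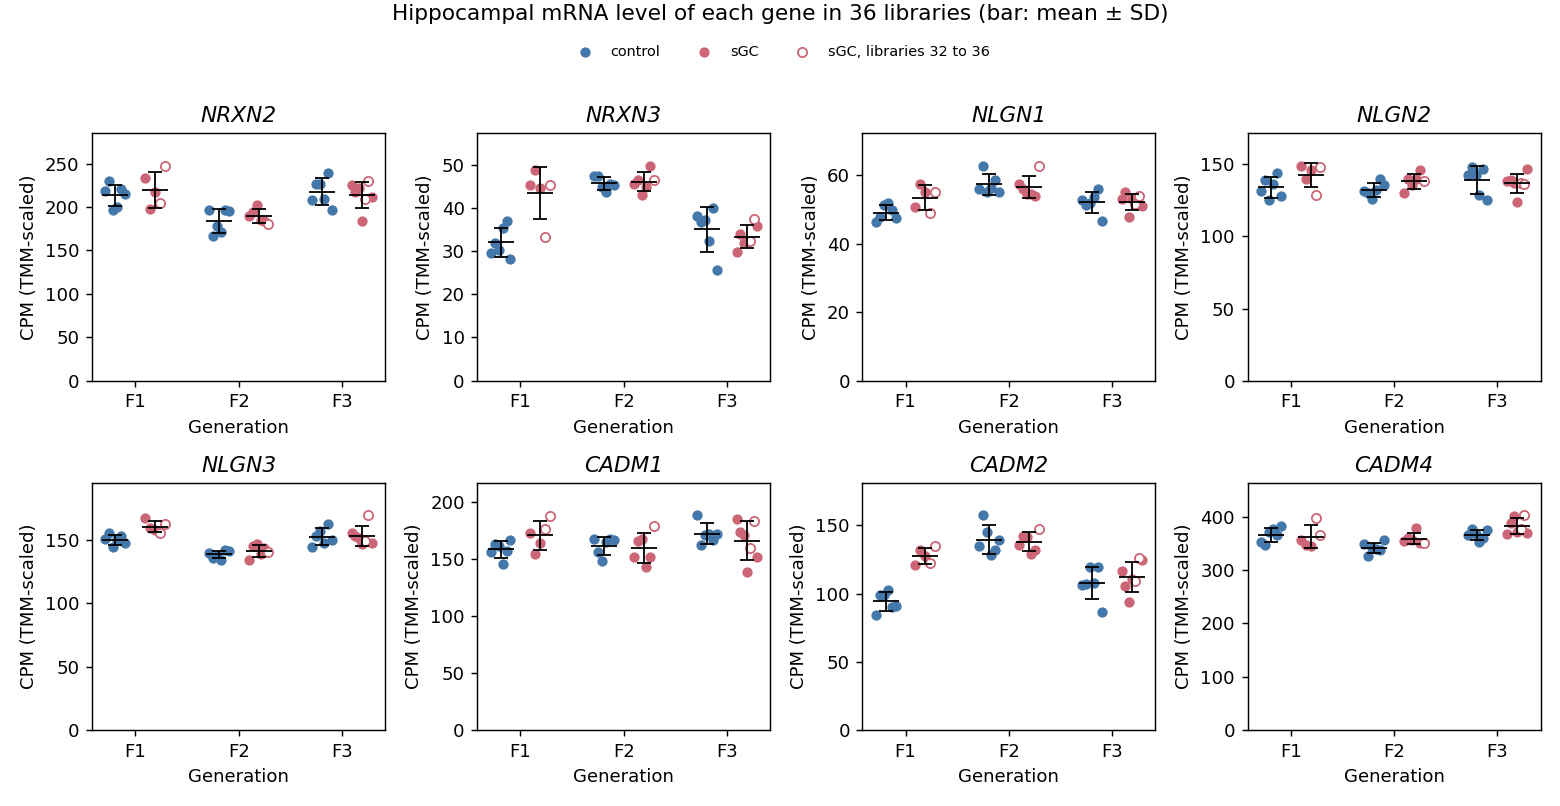
Level of each gene in CPM (vertical axis, from 0) by generation, with 1 point per library and a black bar for the mean ± SD. In F1 the 5 sGC animals lie above all 6 controls for CADM2 and, barely, for NLGN3, and 4 of 5 do so for NRXN3. The groups did not overlap for 4.34% of all genes in F1. In F2 and F3 the sGC and control points overlap for all 8 genes.

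In F1, the genes that rose in sGC animals were CADM2 and NRXN3, by 34.5% and 35.2% on the fitted scale. That is 2 of 8 genes called, against 2.08% of the 11377 genes tested in F1 (1.63% called higher). The log2 fold change was positive for 7 of the 8 genes, with a median of 0.09, where the median of all genes was -0.01. In bulk tissue, fewer cells of a type and less RNA per cell cannot be told apart, and the same holds for more.

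CADM2, an adhesion molecule of axons and synapses, was at 120.9, 132, 127, 122 and 135 CPM in the 5 sGC animals of F1. The 6 controls ran from 84.1 to 102.7 CPM with a median of 94.8. The groups did not overlap, as was so for 4.34% of genes in F1 (2.79% with sGC higher). The control mean was 94.3 ± 7.04 CPM (SD, n = 6) and the sGC mean 127 ± 6.01 CPM (SD, n = 5). The log2 fold change was 0.43, with a standard error of 0.05, a 95% interval of 0.32 to 0.54 and an adjusted p of 0.0021. By p-value CADM2 stood at rank 4 of the 11377 genes. The call held when any 1 of the 11 libraries was left out (log2 fold change 0.40 to 0.46, adjusted p 0.0021 to 0.0092) and without libraries 32 to 36 (0.42, adjusted p 0.0063).

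NRXN3, a presynaptic neurexin, was at 45.2, 48.9, 44.6, 33.3 and 45.3 CPM in the 5 sGC animals of F1, and between 28.1 and 37.0 CPM, with a median of 31.1, in the 6 controls. The ranges overlapped through sGC replicate 4 alone. The control mean was 32.02 ± 3.46 CPM (SD, n = 6) and the sGC mean 43.5 ± 5.95 CPM (SD, n = 5). The log2 fold change was 0.43, with a standard error of 0.09, a 95% interval of 0.23 to 0.64 and an adjusted p of 0.0343. The call was less firm than that of CADM2. It held in 4 of the 11 fits with 1 library left out and was lost without control replicate 1, 2, 3 or 6 (adjusted p 0.0778, 0.0711, 0.0623 and 0.0724) and without sGC replicate 2, 3 or 5 (adjusted p 0.0784, 0.0739 and 0.0826). Without libraries 32 to 36, which include sGC replicate 4, the log2 fold change was 0.53 with an adjusted p of 0.0106.

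The other neurexin, NRXN2, had a mean of 213 ± 12.5 CPM in control and 219.9 ± 20.6 CPM in sGC animals of F1 (log2 fold change 0.04, 95% interval -0.10 to 0.17). The groups overlapped. Among the neuroligins, NLGN3 averaged 150.3 ± 3.97 CPM in control and 161 ± 4.61 CPM in sGC animals. All 5 sGC animals were above all 6 controls, but the highest control and the lowest sGC animal both stood at 155.6 CPM, and the log2 fold change of 0.09 (95% interval 0.01 to 0.16) had an adjusted p of 0.192. NLGN1 averaged 49.0 ± 2.17 and 53.4 ± 3.53 CPM (log2 fold change 0.12, 95% interval 0.01 to 0.22, adjusted p 0.216), with 3 of 5 sGC animals above every control. NLGN2 averaged 134 ± 7.04 and 142 ± 8.35 CPM (log2 fold change 0.08, 95% interval -0.03 to 0.19, adjusted p 0.385). None of the neuroligins passed the test. An unadjusted p below 0.05 was found for 4 of the 8 genes (CADM2, NRXN3, NLGN1 and NLGN3), against 19.6% of all genes in F1.

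The remaining CADM genes did not pass in F1 either. CADM1, the family member also known as SynCAM1, averaged 158 ± 7.50 CPM in control and 170.9 ± 12.6 CPM in sGC animals (log2 fold change 0.10, 95% interval -0.01 to 0.21, adjusted p 0.290). CADM4, which is known from axon and myelin contacts, averaged 366 ± 13.5 and 362 ± 21.3 CPM, and its log2 fold change of -0.02 (95% interval -0.12 to 0.07) was the lowest of the 8. The ratio of CADM2 to CADM1 counts within a library, given without a test, was 0.597 ± 0.0612 in control and 0.749 ± 0.0679 in sGC animals, and that of NRXN3 to NRXN2 was 0.151 ± 0.0185 and 0.199 ± 0.0317. For both ratios the largest control value lay above the smallest sGC value.

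Cell type markers differed between the F1 groups beside these genes. All 7 measured markers of meningeal fibroblasts, of 8 listed, had negative log2 fold changes (median -0.86), and DCN and LUM fell (adjusted p 0.0494 and 0.0258). Their summed level was 100.2 to 282 CPM in control and 68.9 to 139.7 CPM in sGC animals. For astrocytes, 8 of 8 measured markers of 9 listed were positive (median 0.24, none past the threshold), with sums of 8475 to 11123 CPM and 9747 to 15990 CPM. For oligodendrocytes, 6 of 6 measured of 9 listed were negative (median -0.24, none past the threshold), with sums of 1921 to 2661 and 1783 to 2462 CPM. Microglial markers were positive in 5 of 6 measured of 8 listed (median 0.13, none past the threshold), with sums of 195.9 to 247 and 233 to 326 CPM. Of the 6 thalamic neuron markers, 2 were positive and RORA rose (log2 fold change 0.37, adjusted p 0.0043), while their summed levels overlapped, at 113 to 188.2 CPM in control and 122 to 172.8 CPM in sGC animals. Inhibitory neuron markers were negative in 6 of 7 (median -0.11), and those of excitatory hippocampal neurons in 5 of 7 measured of 8 listed (median -0.08). None of these neuronal markers was past the threshold. The part of the cell type markers in the values of CADM2 and NRXN3 was not tested.

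**Figure D2:**
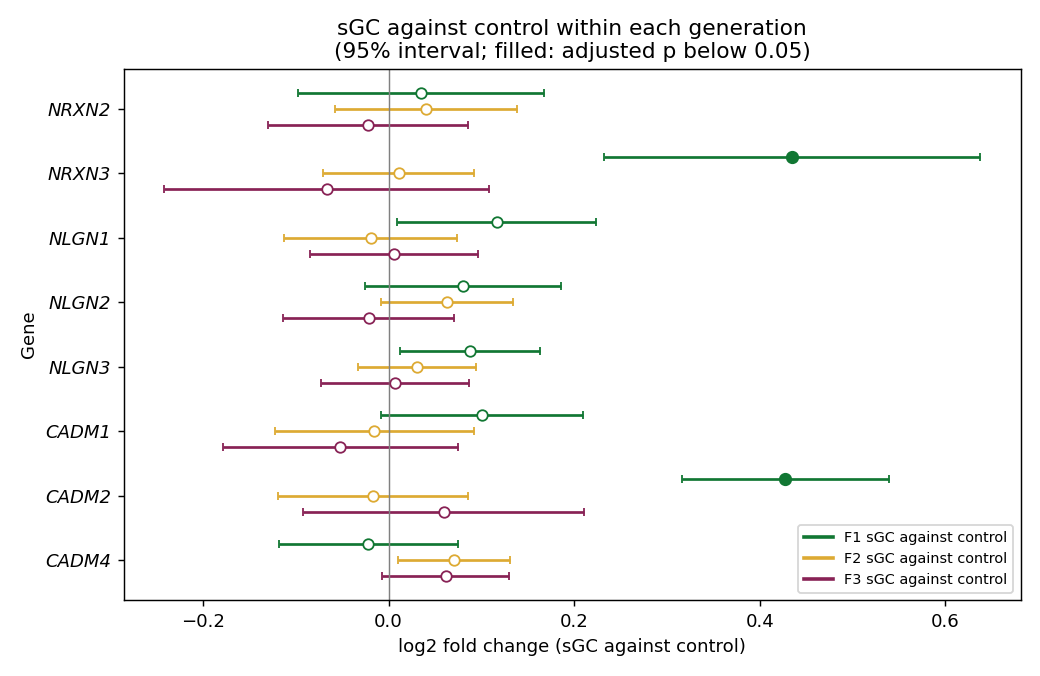
Log2 fold change of sGC against control (horizontal axis) for each gene and generation, with 95% intervals and filled points where the adjusted p was below 0.05. The filled points are those of CADM2 and NRXN3 in F1, both at 0.43.

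In F2, the 8 genes stood close to control, with log2 fold changes from -0.02 to 0.07 and a median of 0.02. None was called by the quasi-likelihood test (0% of the 11414 genes tested), the likelihood ratio test (0.0526%) or DESeq2 (0.0876%). Only 1 of these genes was below 0.05 before adjustment, against 6.64% of all genes. That gene was CADM4, at 341 ± 10.1 CPM in control and 359 ± 10.6 CPM in sGC animals (log2 fold change 0.07, 95% interval 0.01 to 0.13, adjusted p 0.711), where 6 of 6 sGC animals were above the control mean and the groups overlapped. CADM2 ran from 128.6 to 157 CPM in control (median 137.02) and from 129.3 to 148 CPM in sGC animals (median 139). Its log2 fold change was -0.02 with a 95% interval of -0.12 to 0.09. NRXN3 ran from 43.8 to 47.4 CPM in control (median 45.5) and from 43.0 to 49.8 CPM in sGC animals (median 46.1), with a log2 fold change of 0.01 and a 95% interval of -0.07 to 0.09. No gene of the 8 was without overlap in F2, where 0.383% of all genes were. The sGC range of CADM2 lay inside the control range, and for NRXN3 the control range lay inside that of sGC animals.

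The neuroligins in F2 had log2 fold changes of -0.02 (NLGN1, 95% interval -0.11 to 0.07), 0.06 (NLGN2, -0.01 to 0.13) and 0.03 (NLGN3, -0.03 to 0.09). NRXN2 was at 0.04 (95% interval -0.06 to 0.14) and CADM1 at -0.02 (-0.12 to 0.09). For CADM2 and NRXN3, the F2 intervals both ended at 0.09, below the F1 log2 fold change of 0.43 of either gene.

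In F3, none of the 8 passed the quasi-likelihood test (5.04% of 11359 genes called), the likelihood ratio test (6.94%) or DESeq2 (8.25%). Before adjustment 0 of 8 were below 0.05, against 21.1% of all genes. Their log2 fold changes lay between -0.07 and 0.06, 4 positive and 4 negative. As in F2, but not in F1 (1 of 5), CADM4 was above the control mean in every sGC animal (7 of 7). It stood at 366 ± 9.37 CPM in control and 383 ± 14.8 CPM in sGC animals, with a log2 fold change of 0.06 (95% interval -0.01 to 0.13, adjusted p 0.289). CADM2 ran from 86.8 to 119.7 CPM in control (median 107) and from 93.7 to 126 CPM in sGC animals (median 111), a log2 fold change of 0.06 (95% interval -0.09 to 0.21). NRXN3 ran from 25.6 to 40.1 CPM in control (median 37.0) and from 29.8 to 37.5 CPM in sGC animals (median 32.3), a log2 fold change of -0.07 (95% interval -0.24 to 0.11). Both genes overlapped between the groups, as did the other 6, whereas 2.62% of all genes did not.

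The other F3 values were small as well. NRXN2 was at -0.02 (95% interval -0.13 to 0.09), NLGN1 at 0.01 (-0.08 to 0.10), NLGN2 at -0.02 (-0.11 to 0.07), NLGN3 at 0.01 (-0.07 to 0.09) and CADM1 at -0.05 (-0.18 to 0.07) on the log2 scale. CADM1 spread most in F3 sGC animals, from 138 to 185 CPM.

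Whether the sGC effect differed between generations was tested directly, as the difference of the log2 fold changes in 1 model over all 36 libraries. The effect on CADM2 was smaller in F2 than in F1 by -0.45 (SE 0.09, 95% interval -0.64 to -0.26, adjusted p 0.0270), which made it 1 of 8 genes called, against 0.29% of 11390 genes tested. For NRXN3 the difference was -0.43 (95% interval -0.67 to -0.20) with an adjusted p of 0.0628. Before adjustment 3 of the 8 (CADM2, NRXN3 and NLGN1) were below 0.05, against 16.8% of all genes. The likelihood ratio test and DESeq2 called both CADM2 and NRXN3, where they called 1.47% and 1.77% of all genes. The CADM2 call held in 30 of 36 fits with 1 library left out. It was lost without F1 control replicate 1 or 5 (adjusted p 0.0541 and 0.0506), F1 sGC replicate 5 (0.0505), F2 control replicate 2 (0.0656) and F2 sGC replicate 4 or 5 (0.0598 and 0.0573). NRXN3 passed without F1 sGC replicate 4 (0.0238), F2 sGC replicate 6 (0.0488) or F3 control replicate 6 (0.0352).

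Between F3 and F1 the difference was -0.51 for NRXN3 (95% interval -0.74 to -0.28, adjusted p 0.0724) and -0.38 for CADM2 (95% interval -0.56 to -0.19, adjusted p 0.0836). The quasi-likelihood test called 0% of genes here, while 13.1% of all genes and 2 of these genes were below 0.05 before adjustment. The likelihood ratio test and DESeq2 each called both genes, where they called 0.509% and 0.544% of all genes. Both genes passed the quasi-likelihood test without F1 sGC replicate 4 (adjusted p 0.0031 for NRXN3 and 0.0177 for CADM2), F3 control replicate 6 (0.0080 and 0.0249) or F3 sGC replicate 6 (0.0378 and 0.0466). Between F3 and F2 the smallest adjusted p of the 8 was 0.696, and 0 of 8 were below 0.05 before adjustment, against 9.08% of all genes. No gene was called in that comparison by the quasi-likelihood test, the likelihood ratio test or DESeq2.

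Values of the cell type markers in the same comparisons are given as a description. For F2 minus F1, meningeal markers were positive in 7 of 7 (median 0.70) and oligodendrocyte markers in 6 of 6 (median 0.25). Astrocyte markers were negative in 7 of 8 (median -0.21) and microglial markers in 5 of 5 (median -0.20). Inhibitory neuron markers were positive in 4 of 7 (median 0.18) and excitatory neuron markers in 5 of 7 (median 0.07). None of these was past the threshold. Thalamic markers were positive in 4 of 6 (median 0.13), although 1 of them, RORA, was called lower (-0.38, adjusted p 0.0270). In this comparison 0.29% of all genes were called. For F3 minus F1, meningeal markers were positive in 7 of 7 (median 1.06) and oligodendrocyte markers in 6 of 6 (median 0.25). Astrocyte markers were negative in 6 of 8 (median -0.09). Inhibitory and excitatory neuron markers were each negative in 5 of 7 (median -0.07 and -0.05). None of these was past the threshold. The part of the cell type markers in the differences of CADM2 and NRXN3 was not tested.

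**Figure D3:**
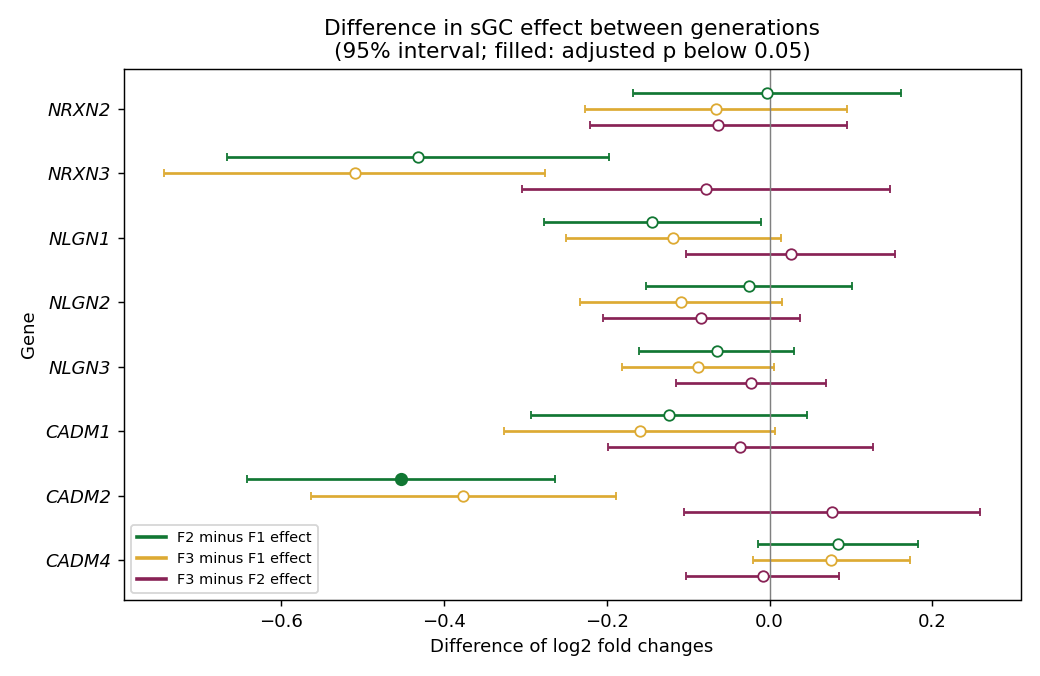
Difference of the sGC effect (log2 fold change) between generations for each gene, with 95% intervals and filled points where the adjusted p was below 0.05. The F2 minus F1 and F3 minus F1 intervals of CADM2 and NRXN3 lie wholly below 0, and the filled point is CADM2 at -0.45.

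The levels of CADM2 and NRXN3 in control animals also differed by generation, and these are given without a test. CADM2 averaged 94.3 CPM in F1 control, 139.6 ± 10.5 CPM in F2 control and 107.8 ± 12.04 CPM in F3 control, so that F2 control stood 48.0% above F1 control with no overlap. The F1 sGC mean of 127 CPM lay between the F1 and F2 control means. NRXN3 averaged 32.02 CPM in F1 control, 45.7 ± 1.46 CPM in F2 control and 35.02 ± 5.29 CPM in F3 control, and F2 control stood 42.8% above F1 control with no overlap. For NRXN3, too, the F1 sGC mean of 43.5 CPM lay between the F1 and F2 control means.

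Of the other genes, NLGN1 stood 16.7% above F1 control in F2 control and the NLGN3 mean decreased by 7.78%, both without overlap, and the remaining 4 overlapped. Such separation was common, at 27.4% of genes (13.5% higher and 13.9% lower in F2). F3 control overlapped F1 control for all 8 genes, where 0.556% of genes did not. Against F2 control, F3 control was lower for NRXN3 and CADM2 and higher for NLGN3 without overlap, where 21.2% of genes did not overlap (10.8% higher and 10.3% lower in F3). The library numbers follow the generations, so generation and the order of the libraries cannot be told apart.

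The ratio of NLGN2 to NLGN1 counts within a library sets a neuroligin of inhibitory synapses against one of excitatory synapses. It moved little between sGC and control animals of the same generation. It averaged 2.73 ± 0.177 in control and 2.67 ± 0.183 in sGC animals of F1, 2.32 ± 0.136 and 2.46 ± 0.187 in F2, and 2.67 ± 0.160 and 2.63 ± 0.191 in F3. The sGC and control groups overlapped in every generation, and the control mean was lower in F2 than in F1 and F3. The ratio was not tested and is not a ratio of molecules, since the lengths of the transcripts were not used.

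The spread between animals of a group differed among the genes. NLGN3 and CADM4 varied least, with a median coefficient of variation over the 6 groups of 3.11% and 3.32%. NRXN3 varied most, with a median of 9.28% and 15.1% in F3 control.

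Within groups some of these genes moved together from library to library. After the mean of each group was subtracted, the 28 pairs had a median Pearson r of 0.19 over 36 libraries, from -0.40 (NLGN1 with CADM4) to 0.71 (NRXN3 with NLGN2). NRXN2 and NLGN3 (r = 0.69) and NLGN1 and CADM2 (r = 0.67) followed, and CADM2 and NRXN3 had r = 0.54. The points share library depth and tissue composition, and the correlations are a description.

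**Figure D4:**
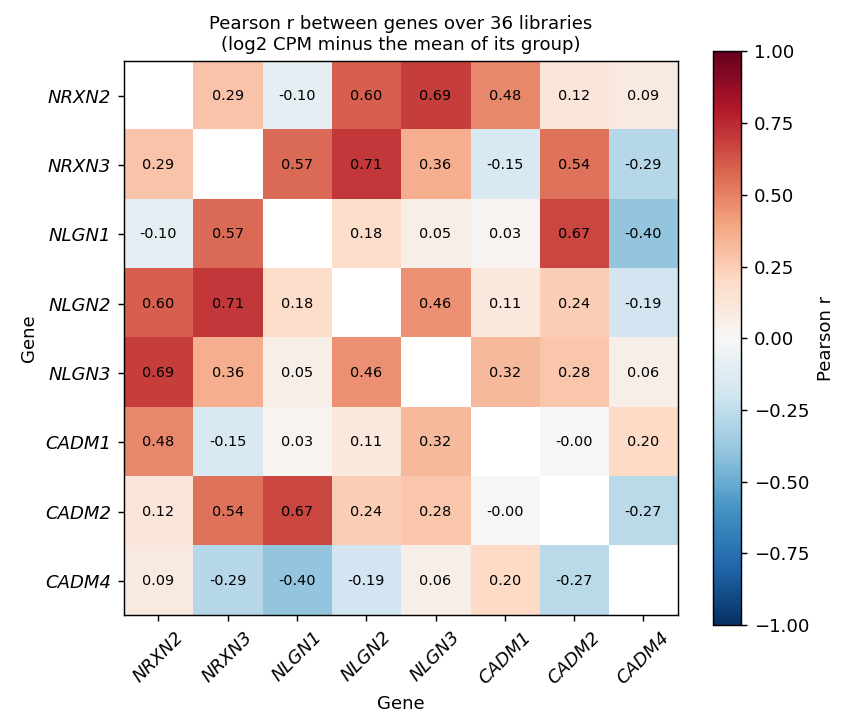
Pearson r between each pair of genes over 36 libraries, computed from log2 CPM minus the mean of the library's group, on a color scale from -1 (blue) to 1 (red). NRXN3 with NLGN2 has the highest r, 0.71, and CADM4 has negative r with NRXN3, NLGN1, NLGN2 and CADM2.

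Outside the family, CADM2 was most like NCOR1, a transcriptional corepressor (r = 0.85), and PLXNA4, a semaphorin coreceptor (r = 0.81), among 11161 genes compared in the same way. NRXN3 was most like ASTN1, a neuronal adhesion protein (r = 0.84), and NALCN, a sodium leak channel (r = 0.81). NRXN2 was most like HCFC1 (r = 0.83) and CTNNB1 (r = 0.81). NLGN1 was most like GRIN2A, an NMDA receptor subunit, and SCN8A, a sodium channel (r = 0.80 for both). NLGN2 was most like the neurexin-binding receptor ADGRL1 and CNTNAP1 (r = 0.80 for both), NLGN3 like DAG1 (r = 0.77) and NFASC (r = 0.72), CADM1 like TRHR (r = 0.80), and CADM4 like CD81 (r = 0.81) and PHGDH, an enzyme of serine synthesis (r = 0.74). Without the 2 libraries farthest from the median, the r of these pairs lay between 0.56 for NFASC and 0.78 for HCFC1.

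The proteins that neurexins, neuroligins and CADMs bind, their scaffolds, splicing factors and other synaptic adhesion genes made a list of 121 symbols, some of them older and newer names of 1 gene. In F1, 3 of the 98 partner genes tested were called, or 3.06%, all higher in sGC animals, close to the 2.08% of all genes called in F1 (1.63% higher). Their median log2 fold change was 0.03. TENM1, a teneurin and ligand of latrophilins, rose by 0.32 on the log2 scale (adjusted p 0.0230), with 43.8 ± 2.89 CPM in the 6 control animals and 55.0 ± 4.88 CPM in the 5 sGC animals. PTPRD, a presynaptic receptor phosphatase, rose by 0.21 (adjusted p 0.0233), and SHANK2, a postsynaptic scaffold, by 0.20 (adjusted p 0.0447) on the log2 scale. These calls leaned on single animals: with 1 library left out, the number of partner genes called ran from 0 (without sGC replicate 2 or 5) to 8 (without sGC replicate 1 or 4), and it was 1 without control replicate 1, 2 or 6. TENM1 was lost without control replicate 1 or 2 (adjusted p 0.0564 and 0.0568) or sGC replicate 2 or 5 (0.0515 and 0.0541), and PTPRD without control replicate 6 (0.0506) or sGC replicate 2 or 5 (0.0522 and 0.0541). SHANK2 was lost in 9 of 11 such fits, all but those without sGC replicate 1 or 4 (adjusted p 0.0537 to 0.0939). By list, the log2 fold change in F1 was positive for 13 of 24 neurexin partners and ligands, 5 of 12 cytoplasmic partners of neurexins, 14 of 16 scaffolds and regulators of neuroligins, 4 of 10 splicing factors, 6 of 9 CADM relatives and partners, and 16 of 27 other synaptic adhesion genes, against 48.3% of all genes.

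In F2, 0 of 99 partner genes passed the quasi-likelihood test, the likelihood ratio test or DESeq2. These tests called 0%, 0.0526% and 0.0876% of all genes.

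In F3, 10 of 98 partner genes were called, or 10.2%, against 5.04% of all genes, with 3 higher and 7 lower, although none of the 8 neurexin, neuroligin and CADM genes was. Of the postsynaptic scaffolds, SHANK1 rose by 0.25 (538 ± 39.0 to 639 ± 42.3 CPM, adjusted p 0.0093), SHANK3 by 0.24 (adjusted p 0.0123) and DLG4, which encodes PSD-95, by 0.14 (adjusted p 0.0470), whereas DLG3 had a log2 fold change of -0.17 (adjusted p 0.0057). Of the neurexin ligands, CLSTN3, a calsyntenin, fell from 945.4 ± 52.8 to 807 ± 26.1 CPM (log2 fold change -0.23, adjusted p 0.0035), LRRTM1 was at -0.16 (adjusted p 0.0149) and CLSTN1 at -0.16 (adjusted p 0.0460). EPB41L3, a cytoskeletal protein that binds CADM1, had a log2 fold change of -0.23 (adjusted p 0.0027), and the adhesion genes SLITRK1 and LRFN5 were at -0.21 (adjusted p 0.0027) and -0.17 (adjusted p 0.0209). The rises of SHANK1, SHANK3 and DLG4 were not called when all generations were fitted together. That fit gave 0 higher and 6 lower partner genes in F3 and called 2.93% of all genes. With 1 library left out of the F3 fit, 7 to 10 partner genes were called. CLSTN1 was lost in 10 of 13 such fits, all but those without control replicate 4 or 6 or sGC replicate 3 (adjusted p 0.0502 to 0.0972), and DLG4 in 12 of 13, all but that without sGC replicate 6 (adjusted p 0.0520 to 0.104). LRFN5 was lost without control replicate 3 (0.0507) or sGC replicate 5 (0.0550). By list, the log2 fold change in F3 was negative for 19 of 24 neurexin partners and ligands, 4 of 12 cytoplasmic partners, 7 of 16 scaffolds and regulators, 8 of 10 splicing factors, 1 of 9 CADM relatives and partners and 23 of 27 other adhesion genes, where 51.7% of all genes were positive.

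**Figure D5:**
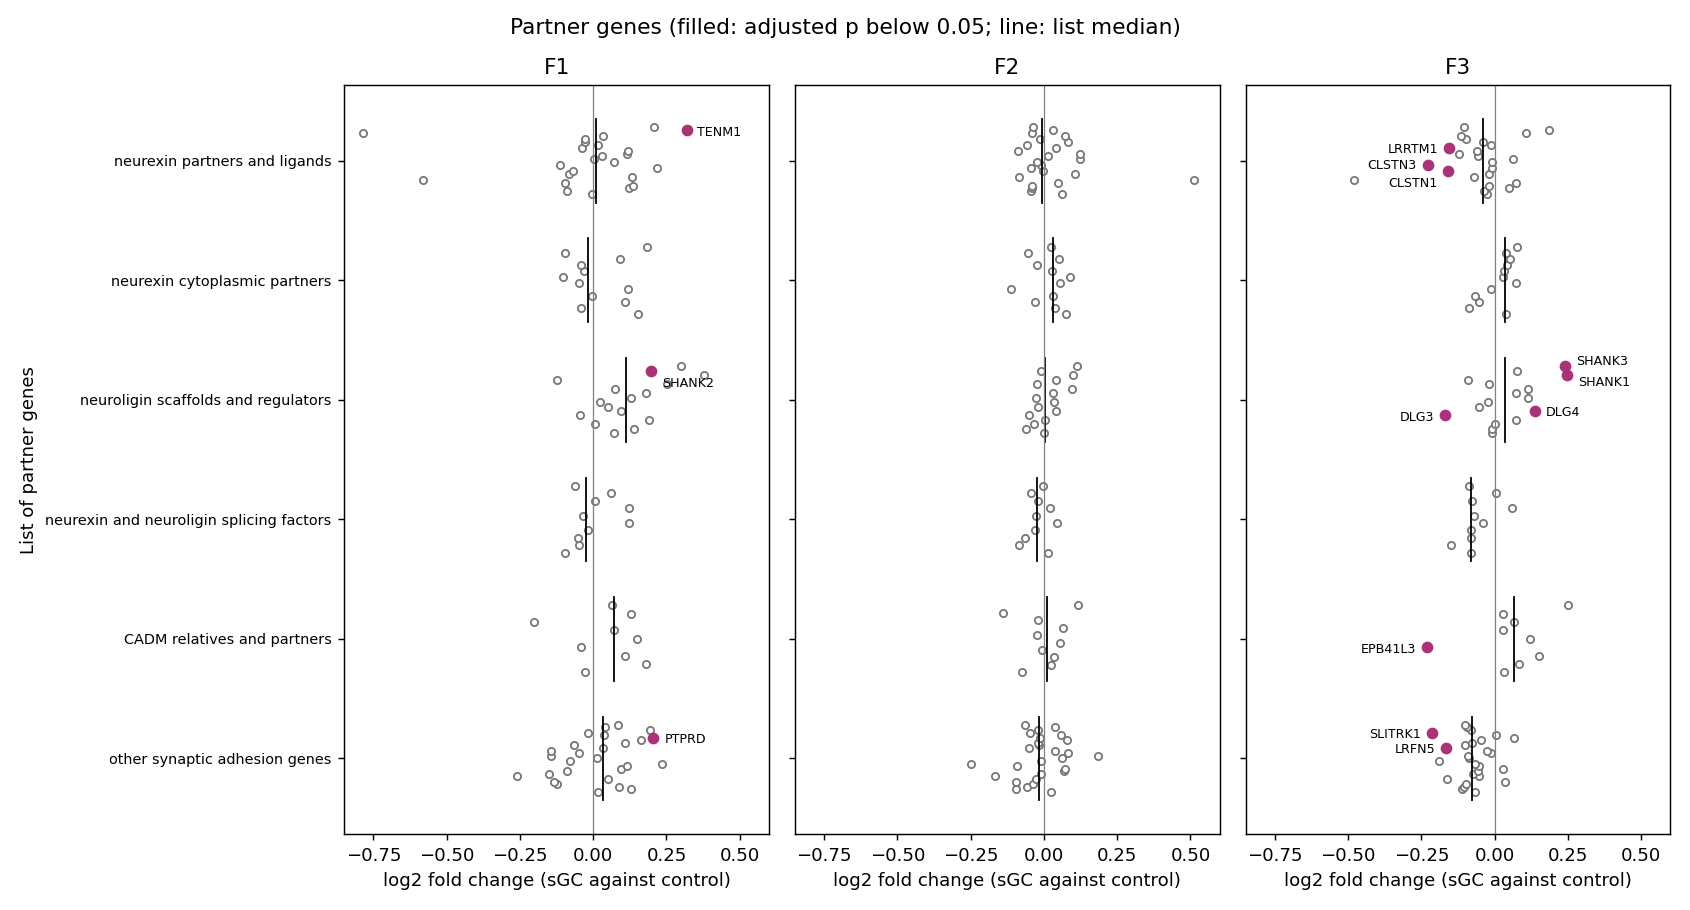
Log2 fold change of sGC against control (horizontal axis) for the partner genes, by list and generation, with filled and named points where the adjusted p was below 0.05 and a black line at each list's median. F1 has 3 filled points, all above 0, F2 has none, and F3 has 10, 7 of them below 0.

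Markers moved in F3 too. Astrocyte markers were positive in 8 of 8 measured, with 3 called and sums of 9332 to 10296 CPM in control and 10501 to 12082 CPM in sGC animals. Inhibitory neuron markers were negative in 7 of 7, with 2 called and sums of 699 to 781 and 603 to 713 CPM. Of all genes, 5.04% were called in F3. Oligodendrocyte markers were positive in 5 of 6 measured (median 0.05) and excitatory neuron markers negative in 5 of 7 (median -0.08), none past the threshold. Meningeal markers were positive in 7 of 7 (median 0.18) and microglial markers in 6 of 6 (median 0.10), none past the threshold, with sums of 112 to 184 against 114 to 225 CPM and of 197 to 267 against 234 to 279 CPM. Of the thalamic neuron markers 3 of 6 were positive and LEF1 rose (log2 fold change 0.23, adjusted p 0.0153). Their part in the partner genes' values was not tested.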

How the data were processed

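Hippocampal mRNA was sequenced on an Illumina HiSeq instrument from TruSeq libraries, which do not mark strand, so reads of an antisense gene cannot be told apart. The authors deposited whole-number counts of reads on each gene, not normalized. The labels name TopHat2 and edgeR, and the build, annotation and counter behind the RNA counts are not given in the sources used here. The authors' fold changes and p-values in these tables, and the methylation tables, which hold only the authors' comparisons, were not used.

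Samples were grouped by generation and treatment from the labels. Genes were kept by filterByExpr (minimum count 10), scaled by TMM and fitted with edgeR 4.0.16 (R 4.3.3, limma 3.58.1): the quasi-likelihood test with Benjamini-Hochberg adjustment within each generation, and over all 36 libraries for differences between generations. Standard errors are the log2 fold change divided by the square root of F. Log2 CPM used a prior count of 0.5. Alternatives were the likelihood ratio test, DESeq2 1.42.0, RLE scaling, no filter, a replicate block, all generations fitted together, leaving out each library, and leaving out libraries 32 to 36. Scripts were tested on simulated counts. Figures were drawn with matplotlib 3.10.9 (Python 3.11.15).

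The 9 genes, partner and marker lists and tests were chosen with earlier results of these data known. Each of the 8 genes measured was named in the comparison of sGC with control in every generation. For differences between generations, not all of them were named. Partner genes were named when past the threshold, up to 10 per generation by smallest p. A few genes that these rules would name are left out. The genes most alike were the 2 with the highest Pearson r for each gene; ratios beyond NLGN2 to NLGN1 were added after values were seen. Libraries of a group differed by more than counting error (chi-square per degree of freedom 2.12 to 28.9 over 91 pairs).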

Additional observations from a re-analysis of the deposited data

Results flagged for a closer look

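Of 48 groups of values, each 1 gene in 1 group of animals, 3 had an animal standing apart from the rest by Dixon's test, where chance gives about 1 in 20. NRXN3 was at 33.3 CPM in F1 sGC replicate 4, below the other F1 sGC animals (44.6 to 48.9 CPM) and inside the control range. NLGN3 was at 169.6 CPM in F3 sGC replicate 6, which rounds to 170, above the other F3 sGC animals. CADM4 was at 379 CPM in F2 sGC replicate 4, above the other F2 sGC animals. The first 2 of these libraries carry numbers from 32 to 36.

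The sGC effect on CADM2 differed between generations in the test of the difference itself, at -0.45 on the log2 scale for F2 minus F1 (adjusted p 0.0270 in edgeR's quasi-likelihood test, range 0.0034 to 0.0984 over the alternatives). NRXN3, at -0.43, did not pass that test (adjusted p 0.0628) but passed the likelihood ratio test, DESeq2 and the quasi-likelihood test without libraries 32 to 36, and these 3 also called both genes for F3 minus F1. For F2 minus F1 these 3 called 1.47%, 1.77% and 0.596% of all genes, against 0.29% in the main fit. For F3 minus F1 they called 0.509%, 0.544% and 3.77%, against 0%.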

How the results depend on the processing

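The number of the 8 genes called in F1 was 2 under every alternative for the whole comparison except the replicate block, which gave 1, and ran from 1 to 2 with 1 library left out. Over the alternatives for the whole comparison, all genes called in F1 ran from 0.598% (replicate block) to 7.48% (all generations fitted together). F2, F3 and F3 minus F2 gave 0 throughout. All genes called, over the alternatives for the whole comparison, ran from 0% to 0.0876% (DESeq2) in F2. In F3 they ran from 1.51% (replicate block) to 8.25% (DESeq2), and for F3 minus F2 they were 0%. For F2 minus F1 (1 gene), the likelihood ratio test, DESeq2 and leaving out libraries 32 to 36 gave 2. These 3 called 1.47%, 1.77% and 0.596% of all genes, against 0.29% in the main fit. The replicate block gave 0 (0.0351% of all genes), and leaving out 1 library 0 to 2. For F3 minus F1 (0 genes), the same 3 gave 2, where they called 0.509%, 0.544% and 3.77% of all genes, against 0%. Leaving out 1 library gave 0 to 2. Partner genes called in F1 (3) became 9 with the likelihood ratio test, 10 with DESeq2 and 11 with all generations fitted together. These settings called 5.26%, 5.78% and 7.48% of all genes in F1, against 2.08% in the main fit. The number was 0 with the replicate block (0.598% of all genes) and 0 to 8 with 1 library left out. In F3 (10, of which 3 higher and 7 lower) the partner genes called became 6 with all generations fitted together, 0 higher and 6 lower. That fit called 2.93% of all genes in F3 (92 higher and 242 lower), against 5.04% in the main fit (247 higher and 326 lower). The cause was not tested.

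Replicate numbers did not pair the animals: same-numbered animals correlated at -0.07 to 0.30 in F1, -0.37 to 0.19 in F2 and -0.29 to 0.02 in F3, and 1 of 5, 0 of 6 and 0 of 6 correlated best with their own number. Under the replicate block CADM2 in F1 was at 0.42 (adjusted p 0.0184), NRXN3 at 0.40 (adjusted p 0.0993), and CADM2 for F2 minus F1 at -0.44 (adjusted p 0.0984).

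Values near 0 changed sign. Without libraries 32 to 36, NLGN1 in F3 was at -0.00062, NLGN3 in F3 at -0.017 and NRXN2 for F2 minus F1 at 0.049, and the last was at 0.00085 with DESeq2 and 0.0010 with RLE scaling. With 1 library left out, log2 fold changes ran from -0.0058 to 0.071 for NRXN2 in F1. In F2 they ran from -0.011 to 0.031 for NRXN3, -0.052 to 0.0092 for NLGN1, -0.052 to 0.014 for CADM1 and -0.040 to 0.021 for CADM2. In F3 they ran from -0.049 to 0.011 for NRXN2, -0.021 to 0.027 for NLGN1, -0.048 to 0.00077 for NLGN2 and -0.019 to 0.025 for NLGN3. The differences ran from -0.040 to 0.043 for NRXN2 (F2 minus F1), and for F3 minus F2 from -0.0048 to 0.056 for NLGN1, -0.066 to 0.0036 for CADM1 and -0.024 to 0.0079 for CADM4.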
